A study of Mus musculus with 6 samples.

Results

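Lysosomal hydrolase and membrane genes are described here: 32 genes, chosen by symbol from the 46095 gene symbols of the deposited expression table. They encode the 11 cathepsins listed, other lysosomal proteases, glycosidases, lipid hydrolases and sterol carriers, and membrane proteins of the lysosome and late endosome. All 32 symbols were found in the table. The RNA came from mouse liver material labelled as hepatocytes, of strain C57BL/6, after 26 weeks on a high-fat diet in every library. The 3 libraries titled as ARRB1 knockouts were compared with 3 wild-type libraries on the same diet. ARRB1 is beta-arrestin 1, an adaptor that binds activated G protein-coupled receptors. The genotype field of knockout replicates 2 and 3 names ARRB2 and ARRB3, against their titles and the series text. The sources used here give neither sex nor the design of the deleted allele, and do not say whether each library was a separate animal. The p-values thus reflect only how these libraries vary.

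Lysosomes are acidic organelles that break down proteins, glycans and lipids delivered by endocytosis and autophagy. Cathepsins are their main proteases, glycosidases and lipid hydrolases dismantle glycoconjugates, stored glycogen and lipids, and heavily glycosylated membrane proteins line the organelle. In liver, hepatocytes carry many lysosomes, and macrophages are rich in the same enzymes, so bulk RNA sums both sources. In such samples, more cells of a type and more RNA per cell cannot be told apart.

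Expression was given as FPKM, fragments scaled to gene length and to library size. Whole reads recovered from the steps of the FPKM values summed to at least 13788002, 34756993 and 28893733 in knockout replicates 1 to 3 and to at least 33013392, 27628708 and 29999158 in wild type, so knockout replicate 1 was the shallowest. Arrb1, the targeted gene, was at 0.918, 1.05 and 1.16 FPKM in knockout replicates 1 to 3, against 3.86, 22.7 and 16.9 FPKM in the wild-type replicates, so it was low in each library titled knockout. The hepatocyte marker Alb was at 28670 to 35460 FPKM in knockout and 27740 to 34860 FPKM in wild type. The labels say hepatocytes, yet markers of other liver cells were present in each group: 16 macrophage markers summed to between 339 and 583 FPKM in knockout and between 307 and 319 FPKM in wild type, and only Aif1 of them was listed at 0. The endothelial marker Clec4g averaged 25.1 ± 3.41 FPKM in knockout and 27.7 ± 4.2 FPKM in wild type (SD, n = 3 each).

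Of the 32 genes, 5 passed the test as higher and 1 as lower in the knockout livers, and most did not pass it. In all, 29 averaged 1 FPKM or more and were tested with limma on log2(FPKM + 1), with p-values adjusted by the Benjamini-Hochberg method over all 10633 tested genes and a call at an adjusted p under 0.05. Hexa, Psap, Ctsd, Ctsb and Ctsz rose and Ctsl fell, so 5 were higher, 1 was lower and 23 were not called. Over all tested genes 5.30% were called higher, 1.60% lower and 6.90% in either direction, against 17.2% of the tested members called higher. The knockout values lay above all wild-type values for 16 of the 29 (23.4% of all tested genes) and below them for Ctsl alone (7.81% of all tested genes). The median log2 fold change, knockout minus wild type, was 0.19 over the tested members and 0.075 over all tested genes, and 79.3% of the members against 63.6% of all genes had a positive one. With scaling by median of ratios these medians were 0.094 and -0.012, and 10 of the 29 tested members, none of them called, turned sign under at least 1 alternative. Each of the 6 calls had an exact two-sided permutation p of 0.1, the smallest that 3 libraries a group allow. Leaving out 1 library gave 1 higher call (knockout 2 or wild type 2 removed), 2 (knockout 3 or wild type 1) or 4 (knockout 1 or wild type 3), and the Ctsl call was lost whichever of the 6 libraries was left out. Hexa was the only member called in each of those 6 fits.

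**Figure D1:**
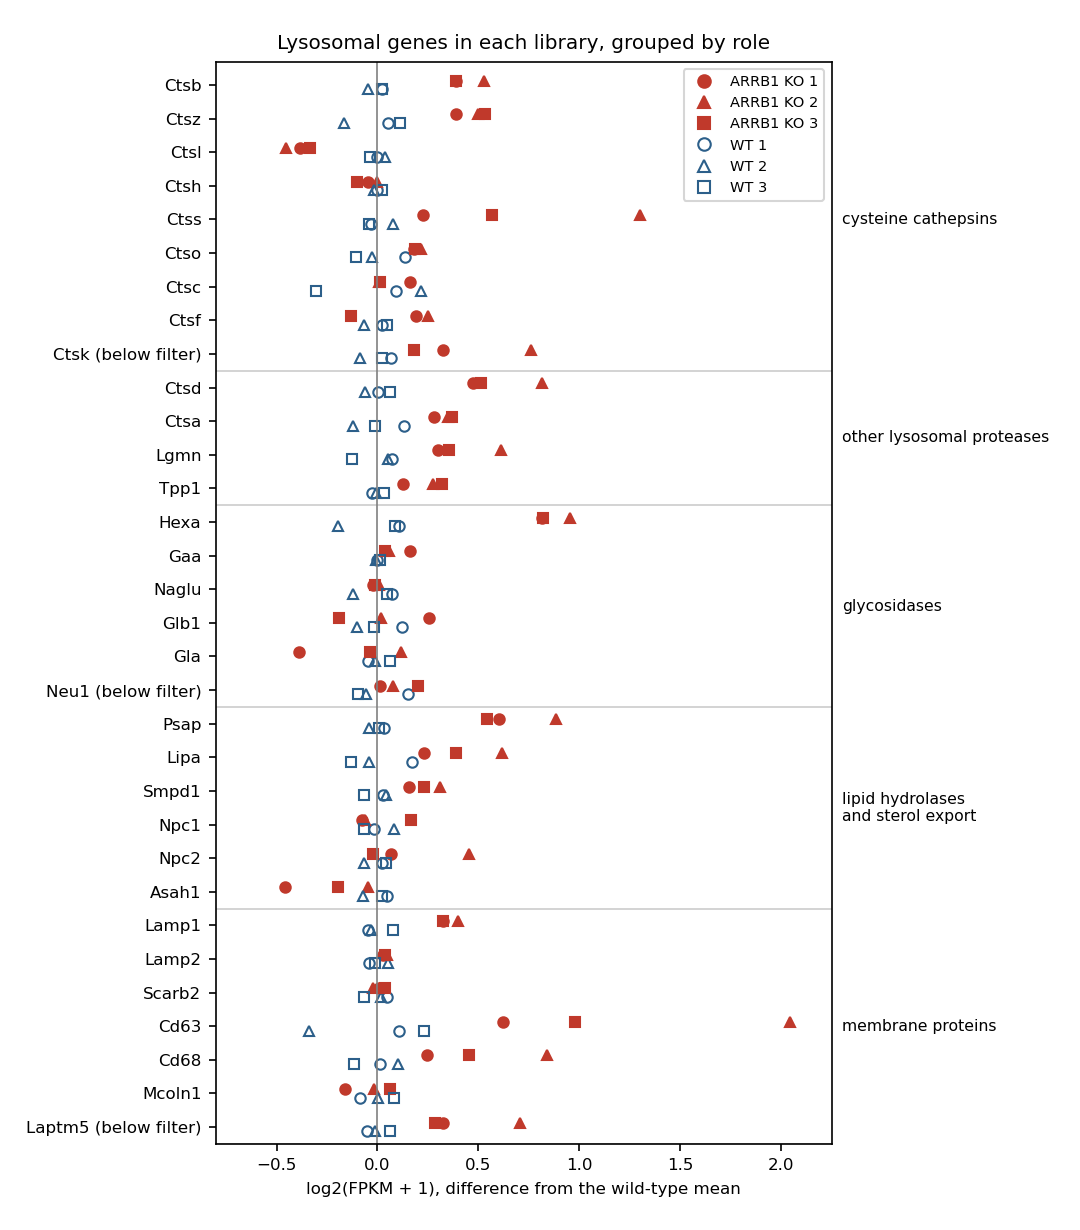
Each row is a lysosomal gene and each point a library, placed by its difference in log2(FPKM + 1) from the mean of the 3 wild-type libraries (filled red, ARRB1 knockout; open blue, wild type; the shape gives the replicate). Ctsl lies left of the wild-type points in each knockout library, and Hexa, Psap, Ctsd, Ctsb and Ctsz lie right of them. Knockout replicate 2 lies farthest right for Ctss, Cd63 and Cd68, and also for Hexa, Psap, Ctsd and Ctsb.

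Among the 9 cysteine cathepsins, Ctsb and Ctsz rose, Ctsl fell, and the similarly abundant Ctsh was not called. Ctsb (chromosome 14, 63122462 to 63145923, plus strand, GRCm38), a cathepsin with endopeptidase and dipeptide-releasing activity, was at 179.8, 198 and 180.4 FPKM in knockout replicates 1 to 3, against 139.5, 133 and 139.5 FPKM in wild type. The knockout replicates lay close together and above every wild-type one. Ctsb rose 1.36-fold, with means of 186 ± 10.6 FPKM in knockout and 137 ± 3.75 FPKM in wild type (SD, n = 3 each), at 0.44 ± 0.084 (SE) on the log2 scale (limma, adjusted p = 0.027; 0.0507 to 0.102 with 1 library left out). Ctsz (chromosome 2, 174427493 to 174439039, minus strand), a carboxypeptidase of the family, was at 147, 159 and 163 FPKM in knockout, against 116, 100 and 121.5 FPKM in wild type. Its groups did not overlap, and it rose, at 0.47 ± 0.101 (SE) on the log2 scale (limma, adjusted p = 0.0362). No fit with 1 library left out called it except the one without wild-type replicate 3, at adjusted p-values of 0.0461 to 0.124. Scaling by median of ratios also lost the Ctsz call (limma, adjusted p = 0.063), as did a replicate block (0.0744) and no filter (0.0895).

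Ctsl (chromosome 13, 64359337 to 64370890, minus strand), the endopeptidase cathepsin L, ran the other way. It was at 138, 132 and 143 FPKM in knockout, against 181, 186 and 177 FPKM in wild type. All 3 knockout values lay below all 3 wild-type values, and the spread within each group was small. Ctsl fell by 0.39 on the log2 scale, with a standard error of 0.081 (limma, adjusted p = 0.0336), to 138 ± 5.73 FPKM in knockout, against 181 ± 4.5 FPKM in wild type (SD, n = 3 each). Its log2 fold change stayed between -0.42 and -0.36 with any 1 library left out, at adjusted p-values of 0.0565 to 0.123.

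Ctsh, an aminopeptidase cathepsin of similar abundance, did not separate the groups: it was at 134.7, 139 and 129.9 FPKM in knockout and 139, 137 and 142 FPKM in wild type (log2 fold change -0.05; limma, adjusted p = 0.730). Ctss, the cathepsin that antigen-presenting cells use to cut the MHC class II invariant chain, was at 30.1, 64.4 and 38.4 FPKM in knockout, against 24.98, 27.0 and 24.8 FPKM in wild type. Each knockout library was above wild type, and replicate 2 stood far above the other two. It was not called (log2 fold change 0.70 ± 0.241, SE; limma, adjusted p = 0.124), and the log2 fold change was 0.40 without knockout replicate 2. Ctso was at 21.46 to 21.95 FPKM in knockout and 17.4 to 20.7 FPKM in wild type, with no overlap and no call (limma, adjusted p = 0.219). Ctsc, the dipeptidyl peptidase that activates granule proteases of immune cells, averaged 17.8 ± 1.16 FPKM in knockout and 17.2 ± 3.28 FPKM in wild type (SD, n = 3 each), and Ctsf averaged 12.4 ± 1.82 FPKM in knockout and 11.4 ± 0.504 FPKM in wild type. Neither was called. Ctsk, the collagen-degrading cathepsin best known from osteoclasts, was below the filter, at 0.492, 1.02 and 0.352 FPKM in knockout, against 0.249, 0.122 and 0.210 FPKM in wild type. Its recovered reads, which are lower bounds, numbered 7 to 73 a library, and its groups did not overlap.

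The opposite moves changed the order of the cathepsins. In wild type Ctsl (181 FPKM) and Ctsd (176 FPKM) were nearly level and led the family. In knockout Ctsd (268 FPKM), Ctsb (186 FPKM) and Ctsz (156 FPKM) all stood above Ctsl and Ctsh, whose means of 138 and 134.5 FPKM differed by less than their spread. As a ratio of FPKM, which does not depend on how the libraries are scaled to each other, Ctsd over Ctsl was 1.77, 2.35 and 1.75 in knockout, against 0.975, 0.907 and 1.04 in wild type. This pair was chosen after its values were seen (exact two-sided permutation p = 0.1, the smallest possible). The summed FPKM of the 11 cathepsins was 969, 1098 and 998 in knockout, against 863, 831 and 862.5 in wild type. Of that sum Ctsl held 14.3%, 12% and 14.4% in knockout, against 20.9%, 22.3% and 20.5% in wild type. Ctsd held 25.2%, 28.2% and 25.1% in knockout, against 20.4%, 20.3% and 21.2% in wild type.

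**Figure D2:**
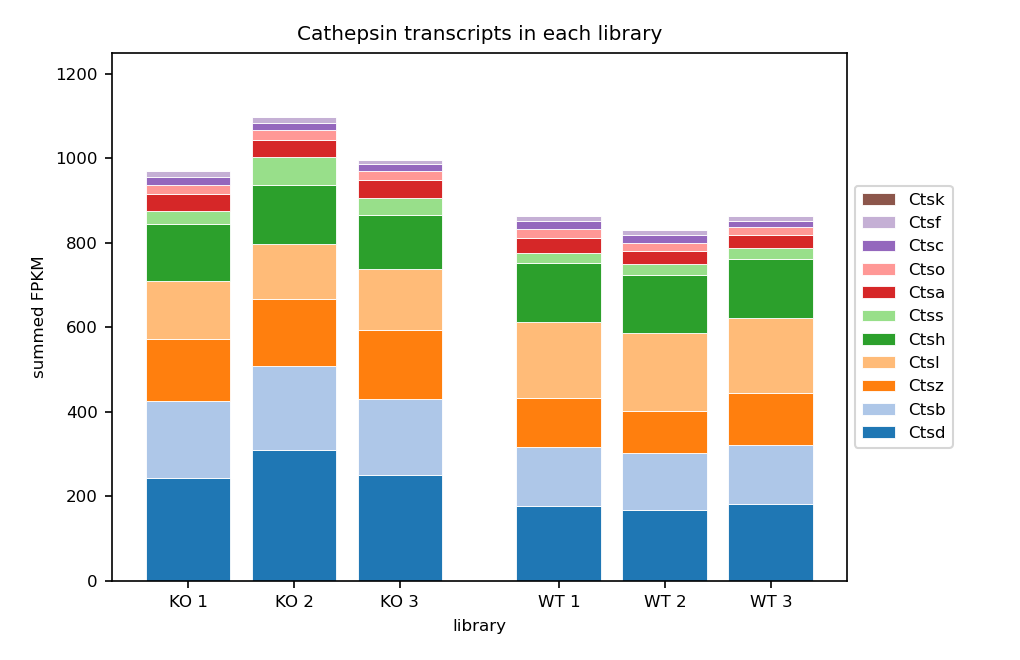
Stacked bars give the FPKM of each of the 11 cathepsins in each library, knockout at the left and wild type at the right. The Ctsl segment is smaller in each knockout bar (12% to 14.4% of the sum) than in each wild-type bar (20.5% to 22.3%), while the Ctsd, Ctsb and Ctsz segments are taller.

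All 4 of the proteases outside the cysteine cathepsins lay above wild type in each knockout library (23.4% of all tested genes). Of them, 1 was called higher (5.30% of all tested genes). Ctsd (chromosome 7, 142375911 to 142388038, minus strand), the aspartic protease cathepsin D, was at 245, 309.8 and 251 FPKM in knockout, against 176, 168 and 183 FPKM in wild type. Replicate 2 was highest, and the other 2 knockout libraries were also clear of wild type. Ctsd rose 1.53-fold, or 0.60 ± 0.113 (SE) on the log2 scale (limma, adjusted p = 0.0245). The call was kept without knockout replicate 1 (adjusted p = 0.0376) or wild-type replicate 3 (0.0473), and adjusted p ran from 0.0508 to 0.0928 without each other library. Lgmn, the asparaginyl endopeptidase legumain that also processes cathepsins, was at 32.95, 41.1 and 34.3 FPKM in knockout, against 28.0, 27.6 and 24.3 FPKM in wild type, and was not called (limma, adjusted p = 0.0615). Ctsa, the protective protein that holds neuraminidase and beta-galactosidase in a complex, averaged 41.6 ± 1.32 FPKM in knockout and 32.9 ± 2.99 FPKM in wild type (SD, n = 3 each; limma, adjusted p = 0.0708). Tpp1, which removes tripeptides from protein ends, averaged 32.05 ± 2.28 FPKM in knockout and 26.9 ± 0.559 FPKM in wild type (SD, n = 3 each; limma, adjusted p = 0.127).

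The promoter of Ctsd is shown because, of the called members with a promoter window in the table (all but Ctsb), Ctsd alone held the 7 letters TCACGTG, part of the element through which the transcription factor TFEB acts on lysosomal genes. The sequence is from RefSeq (GRCm38.p6, chr7:142387778-142388077, minus strand, written 5′ to 3′) and runs from 250 bases before the start to 50 after it. Capitals mark TCACGTG or its reverse complement CACGTGA, in a stretch of 7 bases that begins 245 bases before the start and in a stretch of 8 bases, where both readings overlap, that begins 99 bases before it.
Ctsd promoter: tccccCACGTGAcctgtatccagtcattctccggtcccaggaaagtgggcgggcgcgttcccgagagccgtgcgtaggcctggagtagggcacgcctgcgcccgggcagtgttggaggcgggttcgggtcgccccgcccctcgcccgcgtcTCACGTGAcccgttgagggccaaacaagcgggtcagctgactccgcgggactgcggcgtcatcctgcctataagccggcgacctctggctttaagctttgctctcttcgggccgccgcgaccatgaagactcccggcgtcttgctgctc

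Windows of the same kind were found for 28 of the 32 members. TCACGTG, on either strand, was in the windows of 9 of them (32.1%), against 1160 of 27025 genes in the table (4.29%). The shorter E-box CACGTG, which every TCACGTG contains, was in the windows of 11 members (39.3%), against 8.09% of the genes. Besides Ctsd, TCACGTG was found for Ctsa, Gaa, Gla, Glb1, Lamp1, Lgmn, Mcoln1 and Naglu. The median log2 fold change was 0.086 over these 9 genes and 0.24 over the 16 tested members with a window and no match, among them Hexa, Psap, Ctsz and Ctsl. These letters were searched because the element is known from lysosomal genes, so the higher share among members is a description and no test. A match in letters describes the window and is not evidence of binding.

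Among the 6 glycosidases, Hexa alone was called. Hexa (chromosome 9, 59539540 to 59565109, plus strand), the alpha subunit of beta-hexosaminidase, whose loss in humans stores GM2 ganglioside, was at 44.2, 48.8 and 44.4 FPKM in knockout, against 26.7, 21.5 and 26.3 FPKM in wild type. Every knockout value was far above every wild-type value. Hexa rose 1.84-fold, or 0.86 ± 0.106 (SE) on the log2 scale, with an adjusted p of 0.00641 (limma), the smallest among the members, and adjusted p stayed between 0.0178 and 0.0342 with any 1 library left out. Gm2a, the activator protein that presents GM2 ganglioside to the enzyme, averaged 23.85 ± 1.87 FPKM in knockout and 22.8 ± 3.57 FPKM in wild type (SD, n = 3 each). Gm2a was named after its values were seen.

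The other 5 glycosidases were not called. Gaa, the acid alpha-glucosidase that digests lysosomal glycogen, was at 38.0, 35.3 and 34.8 FPKM in knockout, against 33.8, 33.7 and 34.1 FPKM in wild type. The groups did not overlap, but the means differed by only 1.06-fold (limma, adjusted p = 0.526). Naglu, which removes N-acetylglucosamine from heparan sulfate, averaged 13.3 ± 0.138 FPKM in knockout and 13.4 ± 1.03 FPKM in wild type (SD, n = 3 each). Glb1, the beta-galactosidase, averaged 5.52 ± 1.01 FPKM in knockout and 5.36 ± 0.504 FPKM in wild type, and Gla, alpha-galactosidase A, averaged 2.72 ± 0.644 FPKM in knockout and 2.96 ± 0.154 FPKM in wild type (SD, n = 3 each). Their log2 fold changes lay between -0.10 for Gla and 0.029 for Glb1, within the spread between replicates. Neu1, the lysosomal sialidase, was below the filter at 0.355 to 0.544 FPKM in knockout and 0.257 to 0.492 FPKM in wild type, with overlapping groups.

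Of the 6 lipid-handling genes, Psap was called higher (5.30% of all tested genes). Lipa and Smpd1 also had knockout values above all wild-type values (23.4% of all tested genes) without being called. Psap (chromosome 10, 60277627 to 60302597, plus strand), the precursor of the saposins that present sphingolipids to their hydrolases, was at 338, 412 and 324 FPKM in knockout, against 227, 216 and 224 FPKM in wild type. The lowest knockout library was still well above the highest wild-type one. Psap rose 1.61-fold, or 0.68 ± 0.111 (SE) on the log2 scale (limma, adjusted p = 0.0173), and adjusted p ran from 0.0294 to 0.0696 with any 1 library left out. The call was lost without knockout replicate 2 (0.0506) or wild-type replicate 2 (0.0696).

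Lipa, the acid lipase that frees cholesterol and fatty acids from lipoprotein lipids, was at 109.5, 143 and 122 FPKM in knockout, against 105, 90.5 and 85.1 FPKM in wild type. Its groups did not overlap, although knockout replicate 1 was close to wild-type replicate 1, and it was not called (log2 fold change 0.41 ± 0.127, SE; limma, adjusted p = 0.0954). Smpd1, acid sphingomyelinase, averaged 27.2 ± 1.47 FPKM in knockout and 23.0 ± 0.951 FPKM in wild type (SD, n = 3 each; limma, adjusted p = 0.130). Asah1, acid ceramidase, had a lower mean in knockout, at 6.40, 8.87 and 7.90 FPKM, against 9.52, 8.68 and 9.35 FPKM in wild type, with overlapping groups (limma, adjusted p = 0.262). Npc1, the membrane exporter of lysosomal cholesterol, averaged 24.96 ± 2.50 FPKM in knockout and 24.8 ± 1.36 FPKM in wild type, and its soluble partner Npc2 averaged 23.6 ± 4.48 FPKM in knockout and 20.7 ± 0.854 FPKM in wild type (SD, n = 3 each). Neither was called.

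Of the 7 membrane protein genes, 6 were tested and limma called 0, while voom on the recovered reads called 1 (Lamp1). At an unadjusted p under 0.05 in limma, 3 were higher, against 2032 of all 10633 tested genes. Lamp1, a main glycoprotein of the lysosomal membrane and the most abundant member, was at 372.7, 392.4 and 373.1 FPKM in knockout, against 288, 291 and 314 FPKM in wild type. Its knockout libraries agreed closely and lay above wild type, 0.35 ± 0.087 (SE) higher on the log2 scale, with no call (limma, adjusted p = 0.0552). Lamp2, its paralog and the receptor of chaperone-mediated autophagy, was at 214, 218 and 216 FPKM in knockout, against 204, 218 and 209 FPKM in wild type (limma, adjusted p = 0.812). Lamp1 over Lamp2 was thus 1.74, 1.80 and 1.73 in knockout, against 1.41, 1.33 and 1.5 in wild type, a pair also chosen after its values were seen. Scarb2, which carries glucocerebrosidase to the lysosome, averaged 60.3 ± 1.31 FPKM in knockout and 60.1 ± 2.43 FPKM in wild type, and the calcium channel gene Mcoln1 averaged 13.9 ± 1.17 FPKM in knockout and 14.2 ± 0.909 FPKM in wild type (SD, n = 3 each).

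The remaining 3 membrane genes are typical of macrophages or of late endosomes. Cd63, a tetraspanin of late endosomes and exosomes, was at 8.81, 25.2 and 11.6 FPKM in knockout, against 5.86, 4.03 and 6.48 FPKM in wild type. It had the largest mean log2 fold change of the tested members, 1.22 ± 0.340 (SE), but knockout replicate 2 set much of it and it was not called (limma, adjusted p = 0.0756). Without knockout replicate 2 the log2 fold change was 0.80 (adjusted p = 0.110), and without knockout replicate 1 it was 1.51 (adjusted p = 0.0485). Cd68, a LAMP-family glycoprotein used as a macrophage marker, was at 11.9, 18.5 and 13.9 FPKM in knockout, against 9.94, 10.7 and 9.02 FPKM in wild type, with no overlap and no call (limma, adjusted p = 0.0861). Laptm5, a lysosomal protein of blood-derived cells, was below the filter, with 14 to 86 recovered reads a library. It was at 0.510, 0.967 and 0.473 FPKM in knockout, against 0.166, 0.198 and 0.260 FPKM in wild type.

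Knockout replicate 2 was the highest knockout library for 12 of the 16 tested members whose knockout values all lay above wild type. It was also the highest of all 6 libraries for 15 of the 16 macrophage markers. Neither count was made over all tested genes, so neither can be read as particular to these genes. Higher calls over all tested genes fell from 564 to 100 without knockout replicate 2, and to between 122 and 428 without each other library. The summed FPKM of the 16 macrophage markers was 339, 583 and 386 in knockout, against 307, 319 and 309 in wild type. The most abundant, Lyz2, was at 87.8, 183 and 88.5 FPKM in knockout, against 62.5, 56.7 and 66.9 FPKM in wild type. Limma called 0 of the 14 tested macrophage markers, and voom also called 0. At an unadjusted p under 0.05, 5 were higher, against 2032 of all 10633 tested genes. Of 7 markers of lipid-associated macrophages, 6 were tested and Gpnmb, Lgals3 and Mmp12 were higher, against 5.30% of all tested genes. Gpnmb averaged 5.16 FPKM in knockout and 0.15 FPKM in wild type, and Mmp12 3.18 FPKM in knockout and 0.14 FPKM in wild type. Wild-type levels of both were under the 1 FPKM cutoff, so their entry into the test depended on the group difference itself. The sum of all 7 markers was 38.7, 84.8 and 55.5 FPKM in knockout, against 42.3, 24.0 and 47.7 FPKM in wild type. Fabp5, with the opposite sign and no call (limma, adjusted p = 0.152), held much of the wild-type sums, at 5.28, 9.997 and 9.675 FPKM in knockout, against 22.65, 8.835 and 22.5 FPKM in wild type. Markers of resident Kupffer cells differed among themselves. Their sum was 220, 252 and 269 FPKM in knockout, against 321, 338 and 331 FPKM in wild type, and most of that difference was C6, at 55.7, 87.6 and 111.7 FPKM in knockout, against 142.5, 155.7 and 173.5 FPKM in wild type (limma, adjusted p = 0.0536). Vsig4 was lower (limma, adjusted p = 0.0436), Timd4 and Folr2 lay below wild type without a call, and Cd5l, Marco and Clec4f had overlapping groups.

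Some markers of other liver cells were called as well, where 5.30% of all tested genes were called higher. Of 8 endothelial markers, 2 were higher: Lyve1 was at 9.90, 9.79 and 9.23 FPKM in knockout, against 3.95, 3.45 and 3.18 FPKM in wild type (limma, adjusted p = 0.00176), and Pecam1 averaged 11.98 ± 1.48 FPKM in knockout and 8.19 ± 0.925 FPKM in wild type (SD, n = 3 each; limma, adjusted p = 0.0487). Cdh5 and Stab2 lay above wild type without a call. Clec4g, Kdr, Tek and Fcgr2b had overlapping groups. Their log2 fold changes ran from -0.134 for Clec4g to 0.031 for Fcgr2b and were negative for all but Fcgr2b. Of 8 stellate cell markers, Col1a1 alone was higher, at 7.87, 17.4 and 6.47 FPKM in knockout, against 2.92, 2.33 and 3.31 FPKM in wild type (limma, adjusted p = 0.0336). Of 8 hepatocyte markers, 4 had knockout values below all wild-type values (7.81% of all tested genes). Of these, 2 were called lower (1.60% of all tested genes). Alb, Ttr, Hnf4a and Cyp2e1 had overlapping groups, with log2 fold changes between -0.037 for Alb and 0.24 for Cyp2e1. Cps1, a urea cycle enzyme, was at 188, 165 and 186 FPKM in knockout, against 285, 330.4 and 309.8 FPKM in wild type (limma, adjusted p = 0.00794). Tat, which degrades tyrosine, was at 223, 273 and 462 FPKM in knockout, against 609, 1060 and 619 FPKM in wild type (limma, adjusted p = 0.0495). Summed FPKM overlapped between the groups for the endothelial, stellate and hepatocyte lists, and Alb alone made up most of the hepatocyte sum. The genes of these marker lists, apart from Lyz2, Fabp5, C6, Cd5l, Clec4g, Fcgr2b and Alb, which are among the most abundant of their lists, were named after their values were seen.

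The part of macrophage RNA, or of the other cell types, in the lysosomal differences was not tested. Without knockout replicate 2 the log2 fold changes were 0.82 for Hexa, 0.57 for Psap, 0.49 for Ctsd, 0.46 for Ctsz, 0.39 for Ctsb and -0.36 for Ctsl. Of these, limma called Hexa alone (adjusted p = 0.0342). The macrophage sums of knockout replicates 1 and 3, 339 and 386 FPKM, also lay above the 307 to 319 FPKM of wild type. In knockout replicate 1 much of that excess was Lyz2, at 87.8 FPKM, against 56.7 to 66.9 FPKM in wild type. In the same library C1qa, at 38.1 FPKM, lay below the 41.7 to 42.3 FPKM of wild type. Of the 14 tested macrophage markers, 6 had knockout values above all wild-type values (42.9%, against 23.4% of all tested genes).

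**Figure D3:**
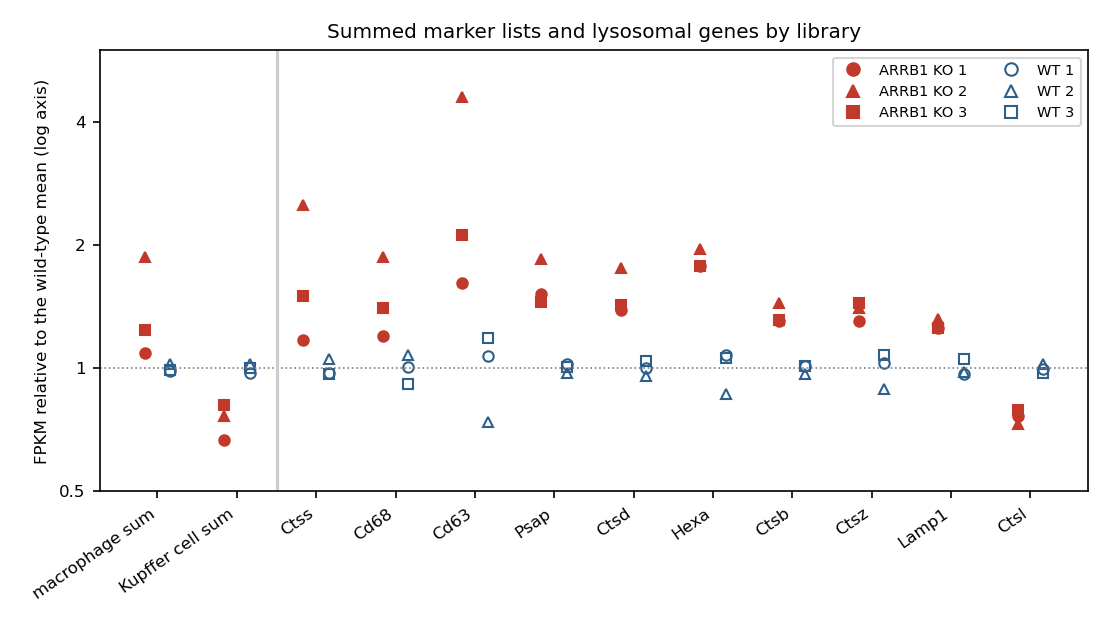
Each column gives the FPKM of the 6 libraries relative to the wild-type mean, on a log axis, with ARRB1 knockout (filled red) left of wild type (open blue); the first columns are the sums of 16 macrophage and 7 Kupffer cell markers. Knockout replicate 2 (triangle) is highest for the macrophage sum and for every gene shown except Ctsz and Ctsl. It stands farthest from the other knockout points for the macrophage sum, Ctss, Cd68 and Cd63. The 3 knockout points of Ctsb, Ctsz, Lamp1 and Ctsl lie close together.

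Other genes of the lysosome were read from the same fit. Of 30 further hydrolases, all tested, 5 were higher and 1 was lower, with a median log2 fold change of 0.23. The higher share was thus 16.7%, against 5.30% of all tested genes, of which 1.60% were lower. Arsa, the arylsulfatase that desulfates sulfatide, was at 23.9, 20.8 and 23.2 FPKM in knockout, against 12.1, 9.91 and 14.4 FPKM in wild type, and rose, at 0.86 ± 0.134 (SE) on the log2 scale (limma, adjusted p = 0.0153). Siae, a sialic acid esterase, rose to 21.7 ± 0.604 FPKM in knockout, against 13.9 ± 2.08 FPKM in wild type, Gusb, beta-glucuronidase, to 17.0 ± 1.46 FPKM in knockout, against 11.8 ± 1.16 FPKM in wild type, and Acp5, tartrate-resistant acid phosphatase, to 47.9 ± 2.27 FPKM in knockout, against 33.02 ± 4.69 FPKM in wild type (SD, n = 3 each). Aga, which cleaves the glycan from asparagine, also rose (limma, adjusted p = 0.0362), and Scpep1, a serine carboxypeptidase, fell to 18.5 ± 2.73 FPKM in knockout, against 26.8 ± 2.38 FPKM in wild type (SD, n = 3 each; limma, adjusted p = 0.0485). Aga and Scpep1 were named after their values were seen. Arsa was the gene of this list with the largest fold change, similar in size to that of Hexa. The 6 calls numbered between 1 and 3 with any 1 library left out.

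Among 20 tested lysosomal membrane proteins outside the members, 1 was higher (5.0%, near the 5.30% of all tested genes) and none was lower (median log2 fold change 0.17). This was Slc48a1, a heme transporter, at 24.3, 30.4 and 24.0 FPKM in knockout, against 18.4, 17.7 and 17.5 FPKM in wild type (limma, adjusted p = 0.032). Clcn7, the chloride-proton exchanger of lysosomes, averaged 15.2 ± 0.410 FPKM in knockout and 11.9 ± 0.498 FPKM in wild type (SD, n = 3 each; limma, adjusted p = 0.0508), and Laptm4b averaged 17.5 ± 2.89 FPKM in knockout and 12.3 ± 1.22 FPKM in wild type. Of 18 tested subunits of the proton pump that acidifies lysosomes, 1 was higher (5.56%, also near 5.30%) and none was lower (median log2 fold change 0.12). Atp6v0e rose to 49.0 ± 5.29 FPKM in knockout, against 34.0 ± 2.63 FPKM in wild type (SD, n = 3 each; limma, adjusted p = 0.0343). Knockout values lay above all wild-type values for 8 of the 18 (44.4%, against 23.4% of all tested genes). Atp6v0a2, Atp6v0c and Atp6v1b2 were among them and were not called. Each list had 0 calls in 5 of the 6 fits with 1 library left out and 1 in the fit without knockout replicate 1.

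Of 9 genes that tag and sort lysosomal enzymes, limma and voom each called 0. At an unadjusted p under 0.05, 4 were higher and 1 lower, against 2032 higher and 658 lower of all 10633 tested genes. Gnptab, the enzyme that builds the mannose 6-phosphate tag, was at 4.15, 4.41 and 3.98 FPKM in knockout, against 3.09, 3.35 and 3.32 FPKM in wild type (limma, adjusted p = 0.0969). Sort1, the sorting receptor sortilin, was at 2.36, 4.15 and 3.38 FPKM in knockout, against 4.70, 5.32 and 4.85 FPKM in wild type (limma, adjusted p = 0.102). Of 16 tested genes of the TFEB family and of nutrient sensing by mTORC1 at the lysosome, 2 were higher (12.5%, against 5.30% of all tested genes) and none was lower (median log2 fold change 0.16). Mtor, the kinase itself, was at 5.71, 6.12 and 6.37 FPKM in knockout, against 4.84, 3.98 and 3.66 FPKM in wild type (limma, adjusted p = 0.0489), and Fnip2, a partner of folliculin, averaged 5.33 ± 0.274 FPKM in knockout and 3.62 ± 0.337 FPKM in wild type (SD, n = 3 each; limma, adjusted p = 0.034). Neither call was made after median-of-ratios scaling or quantile normalization. Tfeb, named after its values were seen, was at 4.202, 4.02 and 4.25 FPKM in knockout, against 3.31, 3.42 and 3.91 FPKM in wild type, and was not called (limma, adjusted p = 0.262).

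**Figure D4:**
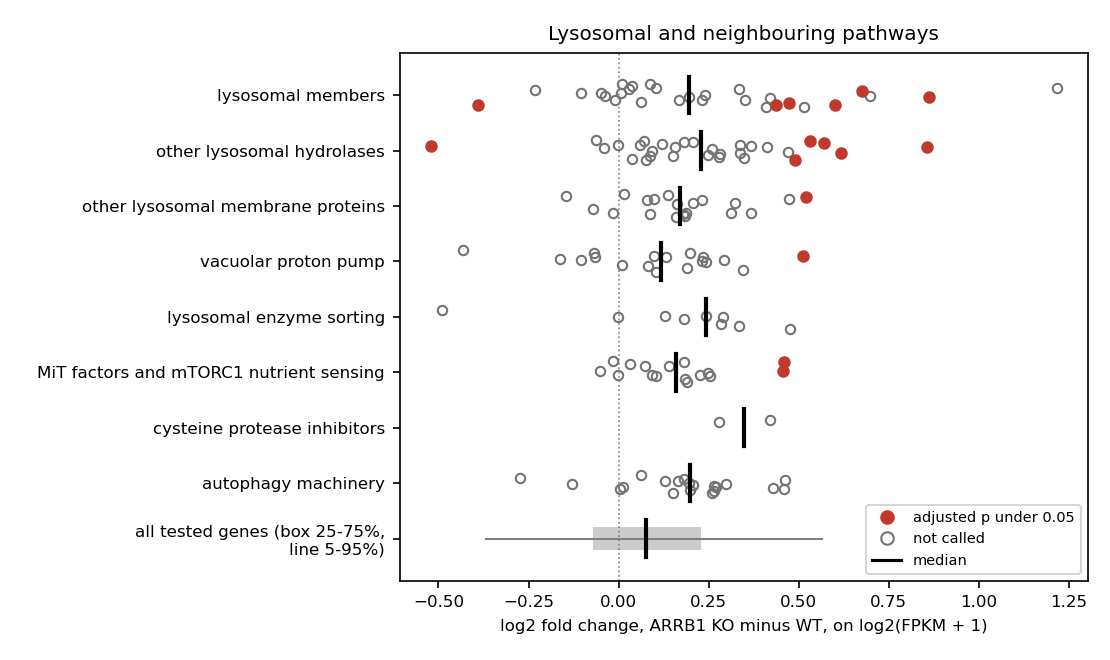
Each point is a tested gene placed by its log2 fold change on log2(FPKM + 1), knockout minus wild type; filled red points were called at an adjusted p under 0.05, black bars are medians, and the grey box and line give the middle and outer range of all 10633 tested genes. The member median of 0.19 and the median of 0.23 of the other hydrolases stand beside 0.075 for all tested genes, and Hexa and Arsa are the called points farthest right.

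Positions and overlaps bear on how these values can be read. The members lie on 16 chromosomes. Ctsk and Ctss are neighbours on chromosome 3, 17.4 kb apart, and Smpd1 and Tpp1 lie 186 kb apart on chromosome 7. The labels do not state strandedness, so reads from overlapping exons of opposite genes cannot be told apart. Exons of Ctsb overlap those of Fdft1, a cholesterol synthesis gene that was at 9.11, 10.1 and 12.2 FPKM in knockout, against 59.6, 48.3 and 47.2 FPKM in wild type, so the overlapping gene moved the opposite way to Ctsb. Exons of Ctsz overlap those of Nelfcd, which averaged 15.9 ± 1.24 FPKM in knockout and 15.1 ± 1.33 FPKM in wild type, and exons of Ctsa overlap those of Pltp, at 34.0 ± 5.67 FPKM in knockout and 24.5 ± 6.12 FPKM in wild type (SD, n = 3 each). On the same strand, exons of Ctsd overlap those of the protein-coding Gm49369 and exons of Ctsl those of the processed pseudogene Gm49230, and how reads shared by such genes were counted is not given.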

How the data were processed

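RNA-seq of 6 mouse liver libraries labelled as hepatocytes was analysed, 3 ARRB1 knockout and 3 wild type, grouped by title. The authors deposited FPKM values, 1 for each of 46095 symbols and each library. The submitters' processing notes list Bowtie 0.12.2, HISAT2 and the builds mm8 and mm10. Their roles, the annotation and the counting of shared reads are not given in the sources used here.

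The FPKM of a gene rise in steps of 1 read, so whole reads were sought for 15149 genes above 0 in all 6 libraries, within 0.01 reads. All 15149 gave them, against 0% of 500 genes with wrong steps, for which the search stopped at lower counts. A factor shared by all 6 counts of a gene cannot be seen, so its reads are lower bounds.

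Limma 3.58.1 in R 4.3.3 (lmFit, eBayes with trend, two-sided) compared the genotypes, with no covariate, on log2(FPKM + 1) of the 10633 genes that averaged 1 FPKM or more. Fold changes on this scale understate those of low genes. The fit was also run on simulated reads with changes larger than those of the called members, so that run does not cover changes of their size. Exact permutation tests used Python 3.11.15 with scipy 1.17.1, pandas 2.3.3 and matplotlib 3.10.9. Positions come from GENCODE for GRCm38, which corresponds to mm10.

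Other settings tried were no filter or one at 5 FPKM, a pseudocount of 0.1, quantile normalization, scaling by median of ratios or to a fixed sum (the TPM scale), array weights, robust eBayes, eBayes without trend, a replicate block, each library left out, and voom on the recovered reads, which was chosen after seeing the data. The members, gene lists and tests were chosen with earlier results of these data known. The text names all members, up to 4 genes with the smallest p from each other list, up to 2 of the most abundant genes of marker lists, and others as stated.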

Additional observations from a re-analysis of the deposited data

How the results depend on the processing

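Directions held for 19 of the 29 tested members under all 17 alternatives, among them the 6 called genes, and 19 members were never called. The 5 higher members were 1 with no filter, 4 with scaling by median of ratios, 8 on the TPM scale, 8 with array weights and between 1 and 4 with 1 library left out. The 1 lower member, Ctsl, was not called with no filter (0) or with any library left out (0 in each). The median log2 fold change of the members, 0.19, was 0.15 with array weights, 0.10 after quantile normalization, 0.25 on the TPM scale and 0.094 with scaling by median of ratios. Over all tested genes the median was -0.0070 after quantile normalization, 0.13 on the TPM scale and -0.012 with scaling by median of ratios.

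Over all tested genes, the 564 higher calls were 370 after quantile normalization, 88 with no filter, 346 with scaling by median of ratios, 990 on the TPM scale and between 100 and 428 with 1 library left out. The 170 lower calls were 58 with no filter and between 55 and 121 with 1 library left out. Higher genes were 76.8% of calls, 64.2% after quantile normalization and 59.9% with scaling by median of ratios.

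The other hydrolases called, 6, were 0 with no filter, 10 on the TPM scale and 1 to 3 with 1 library left out. The other membrane proteins called, 1, were 0 with no filter, 2 with the filter at 5 FPKM or robust estimation, 3 on the TPM scale, with array weights or with voom, and 0 or 1 with 1 library left out. The proton pump genes called, 1, were 0 with no filter, 2 with the filter at 5 FPKM, array weights or voom, 3 on the TPM scale and 0 or 1 with 1 library left out. The TFEB family and mTORC1 genes called, 2, were 0 with no filter, median-of-ratios scaling or quantile normalization, 1 with the filter at 5 FPKM, eBayes without trend or array weights, and 0 or 1 with 1 library left out. The autophagy genes called, 0, were 4 on the TPM scale, 2 with array weights and 0 to 2 with 1 library left out.

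Same-numbered libraries of the groups deviated together with correlations of 0.17, -0.062 and 0.097, so the numbers were not taken as pairs, and knockout replicates 2 and 3 each correlated best with another number. With the replicate block, 280 genes were higher over all, 2 members were higher (Hexa and Psap) and 0 lower, and 2 other hydrolases, 0 other membrane proteins, 0 proton pump genes and 0 TFEB family and mTORC1 genes were called.

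Signs turned only for members with small, uncalled differences. After median-of-ratios scaling the log2 fold change was -0.038 for Ctsc, -0.059 for Glb1, -0.017 for Gaa, -0.092 for Npc1, -0.068 for Lamp2 and -0.097 for Scarb2. After quantile normalization it was -0.022 for Ctsc, -0.056 for Glb1, -0.0050 for Gaa, -0.075 for Npc1 and -0.058 for Scarb2. On the TPM scale it was 0.0040 for Ctsh, 0.044 for Naglu and 0.013 for Mcoln1. With array weights it was -0.072 for Glb1, -0.0050 for Scarb2 and 0.023 for Mcoln1, and with voom -0.019 for Glb1. With 1 library left out, log2 fold changes ran from -0.092 to 0.17 for Ctsc, -0.21 to 0.039 for Gla, -0.085 to 0.14 for Glb1, -0.069 to 0.028 for Naglu, -0.069 to 0.052 for Npc1, -0.026 to 0.030 for Scarb2 and -0.090 to 0.024 for Mcoln1. The cause of these changes was not tested. Ctsk, Laptm5 and Neu1 averaged under the 1 FPKM cutoff and were not tested. Their recovered reads, which are lower bounds, numbered 7 to 86 a library.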

Other observations

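Autophagy delivers cytoplasmic cargo to lysosomes. Of 20 genes of its machinery, all tested, limma called 0, and voom also called 0. At an unadjusted p under 0.05, 7 were higher, against 2032 of all 10633 tested genes. The median log2 fold change was 0.20, and 9 of the 20 had knockout values above all wild-type values, against 23.4% of all tested genes. Sqstm1, the cargo receptor p62, was at 290.3, 330.4 and 311 FPKM in knockout, against 204.5, 221 and 269.9 FPKM in wild type (limma, adjusted p = 0.0799). Each knockout library was above the highest wild-type one. Gabarapl1, a protein that coats autophagosome membranes, was at 259, 253 and 278 FPKM in knockout, against 167, 175 and 238.5 FPKM in wild type (limma, adjusted p = 0.0952). Map1lc3b, which encodes LC3B, averaged 69.7 ± 2.59 FPKM in knockout and 56.7 ± 4.79 FPKM in wild type, and Wipi2 averaged 29.0 ± 0.372 FPKM in knockout and 24.0 ± 1.28 FPKM in wild type (SD, n = 3 each).

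Cystatins inhibit cysteine cathepsins. Of the 4 listed, 2 were tested, and limma and voom each called 0. At an unadjusted p under 0.05, 1 was higher, against 2032 of all 10633 tested genes. The secreted inhibitor Cst3 was at 144, 169 and 153 FPKM in knockout, against 125, 113 and 147 FPKM in wild type, with overlapping groups (limma, adjusted p = 0.195). Cstb, which acts in the cytosol, was at 34.2, 56.9 and 38.8 FPKM in knockout, against 33.2, 26.3 and 35.4 FPKM in wild type, and knockout replicate 2 was again the highest (limma, adjusted p = 0.225).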
